A study of Mus musculus with 6 samples.

Results

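The 52 genes described here form the RAS-RAF-ERK cascade with its feedback inhibitors, in mouse glioblastoma (GBM) neurosphere cultures that were started with NRAS. They were chosen by function, as RAS isoforms, adaptors, exchange factors, GTPase-activating proteins, kinases, phosphatases and feedback targets, and looked up by symbol in the deposited expression table. Of the 52, 51 are among the 13069 genes of the table and 50 are among the 12201 genes with enough signal to be tested. Rasgrp3 was not analysed here, and Rasgrp1 fell under the filter on low values.

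RAS proteins are membrane switches that are on when bound to GTP. Receptors load them through the adaptors GRB2 and SHC and the exchange factors SOS1 and SOS2, and GTPase-activating proteins such as neurofibromin turn them off. Active RAS drives the kinases RAF, MEK and ERK in turn, and ERK then raises the transcription of its own inhibitors, the dual-specificity phosphatases (DUSP), Sprouty and SPRED proteins, so that the output of the pathway is read from their transcripts in many tumours. In glioblastoma the pathway is activated through growth factor receptors or by loss of neurofibromin.

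The groups were 3 libraries of the genotype ATRX knockout (ATRX KO) and 3 of the genotype ATRX wild type (ATRX WT). Both were tumour cells from C57BL/6 or FVB mice injected as neonates, into the ventricles, with Sleeping Beauty plasmids for NRAS overexpression and for a p53 short hairpin, and the plasmid with a short hairpin against ATRX was added or left out. The labels thus give a knockout and a hairpin, and do not say which strain each line came from or at which age the cells were taken. All cultures were kept in a medium for neural stem cells, supplemented with B-27 and N-2 and fed FGF and EGF. The design text names the libraries biological replicates, but each genotype carries a single line code, and the effects of genotype and line cannot be told apart. The p-values therefore cover the spread among libraries of 1 line per genotype, which may be technical.

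Levels are in RPKM, reads scaled to gene length and library size, so that genes can be compared, and means are ± SD over the 3 libraries of a group. Where 3 values are listed they are replicates 1, 2 and 3 in that order. A log2 difference is the ATRX KO mean less the ATRX WT mean of log2 RPKM, with its standard error (SE) from limma. The words rose and fell are kept for genes with an adjusted limma p-value under 0.05, adjusted over all tested genes. The libraries held 22177228 to 38039847 reads in the table, and Atrx measured 14.1, 16.6 and 17.1 RPKM in ATRX KO against 22.3, 22.7 and 21.6 in ATRX WT, lower without overlap but still expressed. Trp53, the target of the hairpin that both groups carry, measured 11.8 ± 0.559 and 12.9 ± 0.198 RPKM (log2 difference -0.13). Cell type markers differed between the lines. The 8 fibroblast and mesenchymal markers listed summed to 1201 to 1375 RPKM in ATRX KO against 2.01 to 2.10 in ATRX WT. The 6 that were tested passed the filter on low values through ATRX KO alone, so the filter fixed the direction of their difference. Not tested were Col1a2, higher at 0.635 against 0.0555 RPKM, and Thy1, lower at 0.656 against 1.12 RPKM. The 4 astrocyte and radial glia markers found of 7 summed to 3072 to 3150 RPKM in ATRX WT and only 29.1 to 33.6 in ATRX KO, and the 5 oligodendrocyte lineage markers found of 7 to 0.487 to 0.602 against 273 to 282. All 6 neural stem cell markers fell, with sums of 47.5 to 49.3 against 186 to 193 RPKM. Of these only Nes and Sox2 passed the filter in ATRX KO as well, so it fixed the direction of the others. Of the 3 endothelial markers found of 5 Cdh5 and Emcn rose, but both passed the filter through ATRX KO alone, which fixed their direction. Kdr, not tested, overlapped at 0.253 against 0.304 RPKM. The 3 pericyte markers found of 5 split, with Rgs5 lower (-8.01) and Cspg4 and Acta2 higher (2.06 and 1.40). Rgs5 passed the filter through ATRX WT alone and Acta2 through ATRX KO alone, so their directions were fixed too. Dcx, Olig1, Bcas1 and Mlc1 had 0 reads in all ATRX KO libraries, so these neural and glial markers were not detected in cultures labelled as GBM neurospheres. Others were lower but still expressed in ATRX KO, with Slc1a3 at 30.8, Nes at 28.3, Sox2 at 19.8 and Tubb3 at 4.60 RPKM. The part of this difference in cell type markers in the values below was not tested, and in bulk RNA fewer cells of a type and less RNA per cell cannot be told apart.

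Of the 50 tested genes 23 rose, 21 fell and 6 gave no call in ATRX KO. Together 88.0% were called, where 89.5% of all tested genes were, with 43.6% of all tested genes higher and 45.9% lower. The groups did not overlap for 44 of the 50 genes, against 90.5% of all tested genes. A difference of at least 1 on the log2 scale, with a call, was found for 17 of the 50 (34.0%), against 36.8% of all tested genes. The median log2 difference of the 50 was 0.04 and their median absolute difference 0.57, beside -0.02 and 0.68 over all tested genes. By these counts the cascade was called about as often as tested genes in general. When libraries were scaled by their reads in the table (read-total scaling), the median over all tested genes went from -0.02 to -0.22 and the split of the called genes from 23 higher and 21 lower to 19 higher and 27 lower, and small differences are relative to the scaling.

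**Figure D1:**
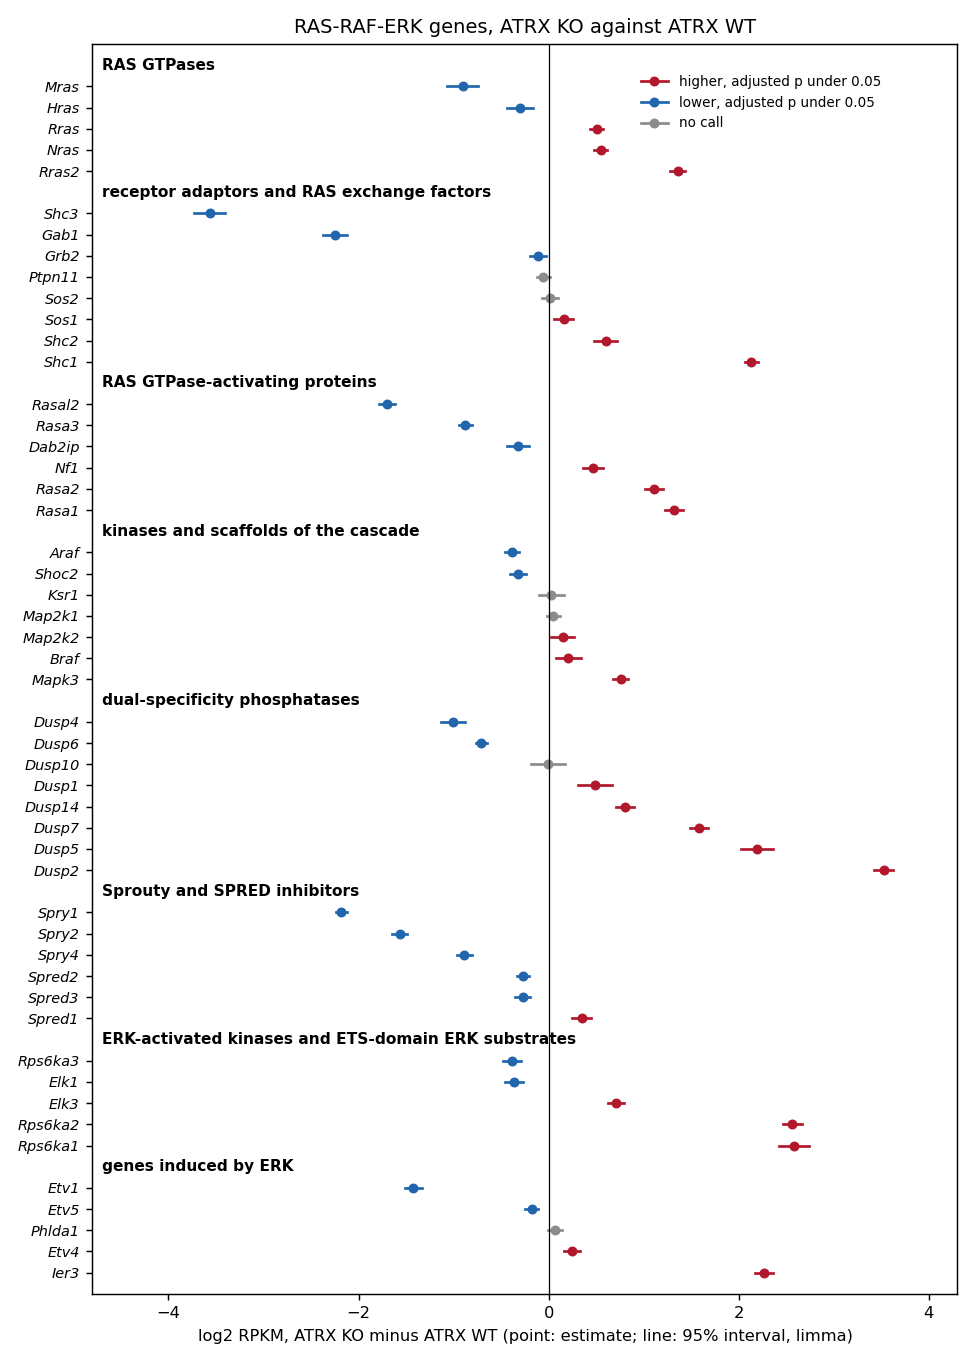
Log2 difference in RPKM between ATRX KO and ATRX WT for the 50 tested genes (horizontal axis), grouped by role and ordered by difference, with points for limma estimates, lines for 95% intervals, and colours for higher, lower and no call. The largest rise is Dusp2 (3.52) and the largest fall is Shc3 (-3.57), and the Sprouty genes lie together on the lower side while most phosphatases lie on the higher side.

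The promoters of 4 feedback genes are shown first, since of these genes, all of them known to be induced by growth factor signalling, Dusp5 and Dusp1 rose in ATRX KO while Dusp6 and Spry1 fell. Each was read from the 250 bases before the transcription start in RefSeq (GRCm38.p6), 5′ to 3′ on the strand of the gene, and stops where a GENCODE exon of the gene begins, which leaves out 36 bases for Dusp5 and 47 for Dusp1. Capitals mark 2 abutting CArG boxes, the serum response factor site, in Dusp5 and the cAMP response element TGACGTCA in Dusp1. The windows lie at chr19:53528895-53529108 on the plus strand (Dusp5), chr17:26508520-26508722 on the minus strand (Dusp1), chr10:99262981-99263230 on the plus strand (Dusp6) and chr3:37639697-37639946 on the plus strand (Spry1).
Dusp5: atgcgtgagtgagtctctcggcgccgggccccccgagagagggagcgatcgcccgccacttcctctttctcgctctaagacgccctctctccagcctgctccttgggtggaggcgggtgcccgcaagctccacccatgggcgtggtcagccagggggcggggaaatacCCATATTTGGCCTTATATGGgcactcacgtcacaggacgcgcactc
Dusp1: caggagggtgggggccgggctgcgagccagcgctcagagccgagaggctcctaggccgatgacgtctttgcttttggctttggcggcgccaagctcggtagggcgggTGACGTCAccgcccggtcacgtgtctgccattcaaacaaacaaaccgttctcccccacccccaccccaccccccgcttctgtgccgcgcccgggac
Dusp6: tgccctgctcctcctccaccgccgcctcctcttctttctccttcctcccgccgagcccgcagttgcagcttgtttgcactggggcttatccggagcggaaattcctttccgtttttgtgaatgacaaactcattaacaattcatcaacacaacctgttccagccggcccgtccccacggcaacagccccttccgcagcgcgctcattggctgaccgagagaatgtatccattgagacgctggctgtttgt
Spry1: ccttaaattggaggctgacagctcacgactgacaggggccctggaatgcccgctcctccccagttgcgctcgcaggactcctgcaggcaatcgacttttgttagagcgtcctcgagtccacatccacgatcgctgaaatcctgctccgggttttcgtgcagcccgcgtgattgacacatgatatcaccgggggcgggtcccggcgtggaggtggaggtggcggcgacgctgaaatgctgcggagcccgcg

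RefSeq windows were matched to 45 of the 52 genes, 60 windows in all because some genes have several starts. A motif was searched on both strands and counted where any window of a gene held it. The CArG box was found in 1 of the 45, Dusp5, where 2 copies abut at 82 and 72 bases before the start, and in 1.62% of all genes with a window. TGACGTCA was found in 3 of the 45, namely Dusp1 at 143 bases before the start, Ptpn11 at 67 and Braf with 2 copies at 99 and 81, against 1.77% of all genes. The ETS motif CCGGAAG was found in 4 (Ptpn11, Nf1, Rasa1 and Shoc2) against 7.83% of all genes, and the AP-1 motif TGANTCA in 2 (Shc1 and Ksr1) against 7.82%. The 4 motifs were not found in the Dusp6 or Spry1 window, which says only that these letters are not in that stretch. They were also absent from the windows of Dusp2, Dusp7 and Dusp14, which rose, and of Spry2, which fell. Whether motifs go with direction was not tested.

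Nras had the highest level of the RAS GTPases in both groups and rose in ATRX KO. Nras (chr3:103058285-103067914, GRCm38), the oncogene used to start the tumours, measured 181, 172 and 177 RPKM in ATRX KO against 120.3, 121 and 122 in ATRX WT. The lowest ATRX KO library lay above the highest ATRX WT library, and the log2 difference was 0.55 (SE 0.028, adjusted p = 1.04e-07). Reads of the plasmid and of the mouse gene are not separated in the deposited values. After quantile normalization the difference was 0.28 and with read-total scaling 0.35, still higher in both.

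Hras, another classical RAS gene, fell in ATRX KO. It measured 24.1, 20.9 and 20.8 RPKM in ATRX KO against 25.9, 26.8 and 28 in ATRX WT (log2 difference -0.30, SE 0.060, adjusted p = 0.0013), and ATRX KO replicate 1 came closest to ATRX WT. With read-total scaling the Hras difference was -0.49.

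Of the RAS relatives, Rras2 and Rras rose and Mras fell. Rras2 (chr7:114046782-114117781), which encodes the RAS-like protein TC21, stood at 23.8, 24.5 and 25 RPKM in ATRX KO against 9.55, 9.42 and 9.6 in ATRX WT. That is a 2.56-fold higher mean and a log2 difference of 1.36 (SE 0.034, adjusted p = 1.03e-09), with no overlap between groups. Rras, a regulator of integrin adhesion, stood at 75.6, 73.2 and 74.4 against 52.4, 51.1 and 53.8 RPKM (log2 difference 0.50, adjusted p = 2.24e-07). Its difference was 0.31 with read-total scaling and 0.34 after quantile normalization. Mras, which joins SHOC2 in a complex that activates RAF, fell from 24.2, 23 and 23.6 RPKM in the ATRX WT libraries to 14.3, 11.7 and 11.9 in ATRX KO (log2 difference -0.91, SE 0.071, adjusted p = 2.08e-06). ATRX KO replicate 1 was again the highest of its group.

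Among the 3 SHC adaptors in the list, Shc3 went from the highest level in ATRX WT to the lowest in ATRX KO. Shc1 went from the second to the highest. Their relative Shc4, outside the list, was above all of them in ATRX WT, at 34.3 ± 0.78 RPKM against 3.12 ± 0.234 in ATRX KO. Shc1 (chr3:89418443-89430027), the widely expressed member that links receptors to GRB2, stood at 60.2, 61.5 and 59.1 RPKM in ATRX KO against 13.4, 14 and 13.8 in ATRX WT, 4.39-fold higher in the mean (log2 difference 2.13, SE 0.031, adjusted p = 4.8e-11). Shc3 (chr13:51431041-51569419), the neuronal member, stood at 1.72, 1.43 and 1.58 RPKM in ATRX KO against 18.7, 18.3 and 18.8 in ATRX WT, 11.8-fold lower (log2 difference -3.57, SE 0.070, adjusted p = 2.46e-10), from 183 reads in all ATRX KO libraries and 3364 in ATRX WT. Neither gene had overlapping groups. Shc2 rose less, from 4.94 ± 0.19 to 7.49 ± 0.239 RPKM (log2 difference 0.60, adjusted p = 4.47e-06). Of the summed RPKM of the 3 genes, Shc1 made up 86.9% ± 0.66 in ATRX KO and 36.8% ± 0.56 in ATRX WT, and Shc3 2.27% ± 0.22 and 49.9% ± 0.91 (SD, n = 3 each). The fall of Shc3 stood beside lower neuronal markers. The 6 listed summed to 5.36 to 5.41 RPKM in ATRX KO against 48.2 to 49.7 in ATRX WT. Tubb3 made up most of the ATRX KO sum, at 4.60 RPKM against 17.4 in ATRX WT. All 5 tested markers fell, but only Tubb3 passed the filter on low values in ATRX KO as well. The others passed it through ATRX WT alone, so the filter fixed their direction. The relation of Shc3 to these markers was not tested.

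Gab1, a docking protein that recruits the phosphatase SHP2, fell to 2.52, 2.5 and 2.36 RPKM in ATRX KO from 11.3, 11.4 and 12.2 in ATRX WT, 4.74-fold lower (log2 difference -2.25, SE 0.056, adjusted p = 9.5e-10). All ATRX KO libraries were far below all ATRX WT libraries. The common core of receptor coupling differed little. Grb2, the adaptor that binds SOS, was at 32.7, 31.4 and 31.2 RPKM in ATRX KO against 35.9, 33.2 and 34.3 in ATRX WT (log2 difference -0.12, adjusted p = 0.0151), and this call was lost without ATRX KO replicate 3 (adjusted p = 0.0541) and without ATRX WT replicate 1 (adjusted p = 0.0615). With read-total scaling it was -0.31, and after quantile normalization -0.23.

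Sos1, an exchange factor that loads RAS with GTP, was at 8.27, 8.44 and 8.47 against 7.41, 7.74 and 7.44 RPKM (log2 difference 0.16, adjusted p = 0.0065), and with read-total scaling it turned to -0.04 (adjusted p = 0.376). Its relative Sos2 was at 11.8, 12.4 and 12.3 RPKM in ATRX KO against 12.1, 12.1 and 12 in ATRX WT. The groups overlapped and the log2 difference of 0.02 gave no call (95% interval -0.07 to 0.10, adjusted p = 0.696), and it was -0.18 with read-total scaling (adjusted p = 0.0014). Ptpn11, which encodes SHP2, was at 43.4, 41.9 and 42.9 RPKM in ATRX KO against 43.3, 45.2 and 45 in ATRX WT, with overlap and no call (log2 difference -0.06, 95% interval -0.12 to 0.01, adjusted p = 0.0917). Ptpn11 was called lower under 4 alternatives, with -0.25 under read-total scaling, -0.21 after quantile normalization, -0.10 with equal medians and -0.08 without ATRX WT replicate 1. Rasgrp1, an exchange factor of lymphocytes and neurons, had 53, 75 and 55 reads in the ATRX WT libraries and 0 in all ATRX KO libraries. Against 3 reads over the group it was at least 39.97-fold lower, and it was not tested. That bound covers counting error only.

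GTPase-activating proteins, which turn RAS off, were 3 higher and 3 lower, beside 43.6% higher and 45.9% lower among all tested genes. Rasa1 (chr13:85214780-85289130), which encodes p120 RasGAP, stood at 65.4, 72.5 and 71.5 RPKM in ATRX KO against 28, 28.6 and 27.6 in ATRX WT, 2.49-fold higher (log2 difference 1.31, SE 0.042, adjusted p = 4.32e-09). Rasa2 stood at 12.6, 12.6 and 12.4 against 5.66, 6.00 and 5.76 RPKM, 2.16-fold higher (log2 difference 1.11, SE 0.042, adjusted p = 1.31e-08). Both had all ATRX KO libraries above all ATRX WT libraries. Nf1, the neurofibromin gene and a tumour suppressor of glioma, stood at 9.7, 9.79 and 9.82 against 6.71, 7.27 and 7.26 RPKM (log2 difference 0.47, SE 0.046, adjusted p = 1.19e-05), and its difference was 0.27 with read-total scaling.

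On the lower side, Rasal2 (chr1:157135182-157412595) stood at 5.61, 5.44 and 5.57 RPKM in ATRX KO against 18, 18.4 and 17.7 in ATRX WT, 3.25-fold lower (log2 difference -1.70, SE 0.038, adjusted p = 5.38e-10). Rasa3, a membrane-bound GTPase-activating protein for RAS and RAP, had the highest level of the 6 in ATRX WT and fell from 93.4, 93.1 and 94 to 52.7, 50.2 and 49.9 RPKM (log2 difference -0.88, adjusted p = 5.19e-09). The order of Rasa1 and Rasa3 was thereby turned round, with Rasa3 above Rasa1 in every ATRX WT library and below it in every ATRX KO library. Dab2ip fell from 14.4 ± 0.351 to 11.5 ± 0.717 RPKM (log2 difference -0.32, adjusted p = 0.00027), and by 0.52 with read-total scaling.

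**Figure D2:**
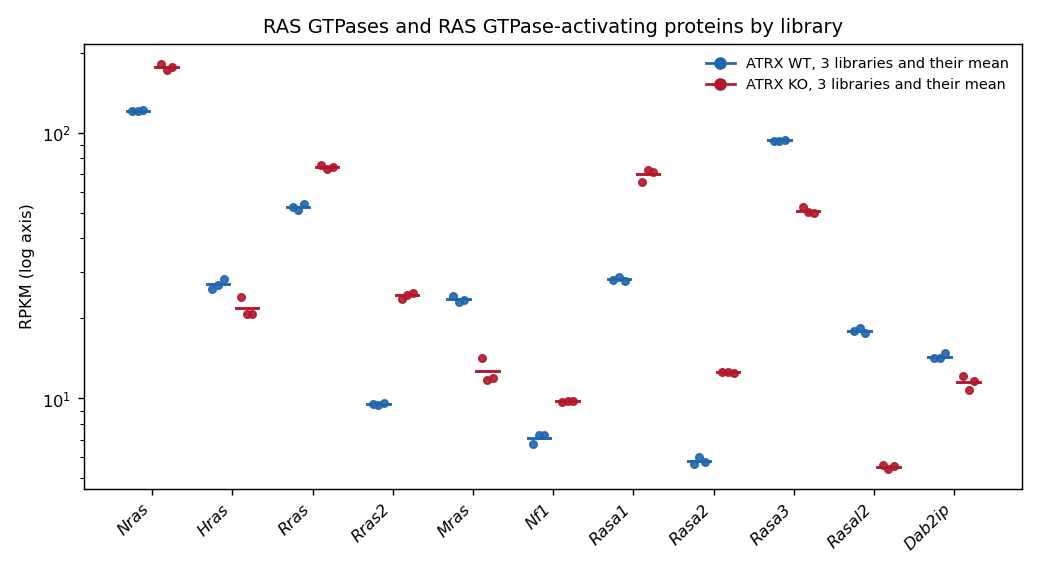
RPKM (vertical log axis) of the 5 RAS GTPases and 6 GTPase-activating proteins in each library, with a dot per library and a bar at the mean of the 3 libraries. Nras is the highest in both groups, and Rasa1 and Rasa3 trade places between ATRX WT and ATRX KO. The groups do not overlap for any of the 11 genes, nor for 90.5% of all tested genes.

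The kinases and scaffolds of the cascade all differed by less than 1 on the log2 scale. Of these 7 genes 3 rose, 2 fell and 2 gave no call, beside 43.6% higher and 45.9% lower among all tested genes. Mapk3 (chr7:126759601-126765819), which encodes ERK1, had the largest difference, with 83.5, 80.7 and 78.4 RPKM in ATRX KO against 47.7, 46.7 and 49.3 in ATRX WT (log2 difference 0.76, SE 0.033, adjusted p = 3.9e-08). Its lowest ATRX KO library lay above its highest ATRX WT library.

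Among the RAF genes Araf fell from 21.7 ± 0.204 to 16.6 ± 0.313 RPKM (log2 difference -0.39, adjusted p = 2.4e-06), and by 0.58 with read-total scaling. Braf was at 6.91, 7.78 and 6.96 RPKM in ATRX KO against 6.28, 6.32 and 6.14 in ATRX WT (log2 difference 0.21, adjusted p = 0.00795), but at a difference of 0.01 (adjusted p = 0.874) with read-total scaling.

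Map2k1, which encodes MEK1, was at 52.5, 50.6 and 52.4 RPKM in ATRX KO against 49.1, 50.1 and 51.1 in ATRX WT, with overlap and no call (log2 difference 0.05, 95% interval -0.02 to 0.11, adjusted p = 0.137). It was called lower after quantile normalization (-0.11) and with read-total scaling (-0.15). Map2k2, which encodes MEK2, was at 47.4, 41.2 and 45.3 against 39.8, 39.2 and 41.8 RPKM, and its call (log2 difference 0.15, adjusted p = 0.0238) went with overlapping libraries. That call was lost under 8 alternatives, with -0.05 under read-total scaling, 0.01 after quantile normalization, 0.11 with equal medians and an adjusted p of 0.0537 without the mean-variance trend. It was lost too without ATRX KO replicate 1 (adjusted p = 0.0671), ATRX KO replicate 3 (0.0712), ATRX WT replicate 1 (0.0752) and ATRX WT replicate 2 (0.0853).

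Ksr1, a scaffold that brings RAF and MEK together, was at 4.81, 4.87 and 4.44 against 4.52, 4.56 and 4.77 RPKM, with overlap and no call (log2 difference 0.03, 95% interval -0.11 to 0.16, adjusted p = 0.667). Its sign followed the scaling, at 0.23 after quantile normalization, -0.01 with equal medians and -0.17 with read-total scaling. Shoc2, the scaffold of the RAF-activating phosphatase complex, fell from 18.9 ± 0.56 to 15.1 ± 0.392 RPKM (log2 difference -0.32, adjusted p = 3.38e-05), in the same direction as its partner Mras, and by 0.52 with read-total scaling.

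Of 8 dual-specificity phosphatases 5 rose, 2 fell and 1 gave no call, beside 43.6% higher and 45.9% lower among all tested genes. Dusp2 (chr2:127336159-127338376), a nuclear phosphatase of ERK and p38, stood at 52.8, 47.1 and 50.5 RPKM in ATRX KO against 4.34, 4.38 and 4.36 in ATRX WT, 11.5-fold higher (log2 difference 3.52, SE 0.045, adjusted p = 2.62e-11). Dusp5 (chr19:53529109-53542431), a nuclear phosphatase selective for ERK and the gene with the paired CArG boxes, stood at 68.7, 55.1 and 60.3 against 12.9, 13.1 and 14.2 RPKM, 4.58-fold higher (log2 difference 2.19, SE 0.075, adjusted p = 7.04e-09). Every ATRX KO library lay above every ATRX WT library for both genes. Dusp7, a cytoplasmic phosphatase of ERK, stood at 33.7, 31.9 and 32.7 against 10.7, 10.7 and 11.5 RPKM, 2.99-fold higher (log2 difference 1.58, SE 0.041, adjusted p = 1.34e-09).

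The ERK phosphatases with the highest levels in ATRX WT fell instead. Dusp6 (chr10:99263231-99267489), the cytoplasmic ERK phosphatase and a usual readout of ERK activity, stood at 267, 274 and 274 RPKM in ATRX KO against 442, 446 and 444 in ATRX WT (log2 difference -0.71, SE 0.026, adjusted p = 1.24e-08), and differed by -1.12 after quantile normalization. Dusp4 (chr8:34807297-34819894), a nuclear phosphatase, stood at 68.9, 58.2 and 61.5 against 127, 125 and 126 RPKM (log2 difference -1.01, SE 0.055, adjusted p = 1.76e-07). Neither gene had overlapping groups. Summed over Dusp4, Dusp5, Dusp6 and Dusp7 the level was 429 ± 10.0 RPKM in ATRX KO against 594 ± 1.57 in ATRX WT. Dusp6 made up 63.4% ± 2.24 and 74.7% ± 0.24 of it, and Dusp5 14.3% ± 1.26 and 2.25% ± 0.11 (SD, n = 3 each).

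The remaining phosphatases differed by less than 1 on the log2 scale. Dusp14 rose from 12.3 ± 0.561 to 21.4 ± 0.318 RPKM (log2 difference 0.80, adjusted p = 1.03e-07). Dusp1, an immediate early phosphatase of p38 and JNK, rose from 6.44, 6.04 and 6.11 RPKM in the ATRX WT libraries to 9.83, 7.98 and 8.3 in ATRX KO (log2 difference 0.48, SE 0.079, adjusted p = 0.000334), or by 0.29 with read-total scaling. ATRX KO replicate 1 had the highest value of its group for 7 of the 8 phosphatases, all but Dusp6, and for 29 of the 50 tested genes. Dusp10, a phosphatase of JNK and p38, was at 3.47, 3.12 and 3.44 against 3.1, 3.57 and 3.43 RPKM, with overlap and no call (log2 difference -0.01, 95% interval -0.19 to 0.17, adjusted p = 0.914). Its sign followed the scaling, at 0.31 after quantile normalization and -0.20 with read-total scaling. It also turned to between 0.01 and 0.04 without ATRX KO replicate 2, ATRX WT replicate 2 or ATRX WT replicate 3.

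All 3 Sprouty genes in the list fell, where 45.9% of all tested genes were lower. These membrane inhibitors hold back RAS activation downstream of growth factor receptors. Spry1 (chr3:37639947-37644598) stood at 34.8, 35.4 and 35 RPKM in ATRX KO against 159.9, 157 and 162 in ATRX WT, 4.54-fold lower (log2 difference -2.18, SE 0.025, adjusted p = 1.55e-11). Spry2 (chr14:105891947-105896819) stood at 37.5, 39.9 and 40.7 against 116, 116 and 117 RPKM, 2.96-fold lower (log2 difference -1.57, SE 0.034, adjusted p = 4.07e-10). For Spry4 the values were 91.5, 91.6 and 86.3 against 159.9, 169 and 169.5 RPKM, 1.85-fold lower (log2 difference -0.89, SE 0.035, adjusted p = 1.97e-08). No ATRX KO library reached the lowest ATRX WT library in any of the 3, and their sum was 164 ± 2.53 RPKM in ATRX KO against 442 ± 6.04 in ATRX WT (SD, n = 3 each). Spry4 made up 54.7% ± 1.30 of that sum in ATRX KO and 37.6% ± 0.80 in ATRX WT, since it fell least.

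SPRED genes, whose proteins bring neurofibromin to RAS at the membrane, differed by less and not in one direction. Spred1 rose from 61.2, 61 and 57.8 RPKM in the ATRX WT libraries to 72, 80.6 and 76.6 in ATRX KO (log2 difference 0.35, SE 0.044, adjusted p = 6.2e-05), though by 0.15 with read-total scaling and 0.16 after quantile normalization. Spred2 fell from 40.3 ± 0.707 to 33.3 ± 0.377 RPKM (log2 difference -0.27, adjusted p = 1.09e-05) and Spred3 from 15.7 ± 0.285 to 13 ± 0.282 (log2 difference -0.27, adjusted p = 6.69e-05). With read-total scaling both fell by 0.47. Spred1, the member with the highest level, and its binding partner Nf1 were thus both higher in ATRX KO. The 3 SPRED genes summed to 123 ± 4.16 RPKM in ATRX KO against 116 ± 1.19 in ATRX WT.

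**Figure D3:**
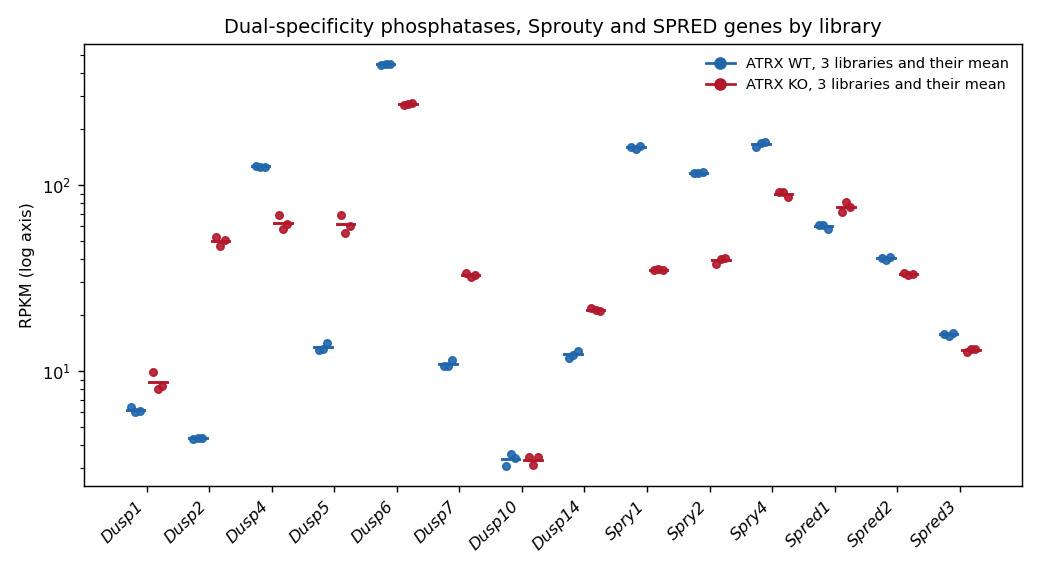
RPKM (vertical log axis) of the 8 dual-specificity phosphatases and 6 Sprouty and SPRED genes in each library, with a dot per library and a bar at the mean of the 3 libraries. Dusp2, Dusp5 and Dusp7 are higher in every ATRX KO library, Dusp4, Dusp6, Spry1, Spry2 and Spry4 lower in every one, and Dusp10 overlaps.

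Kinases that ERK activates changed in composition. Rps6ka1 (chr4:133847290-133887797), which encodes the ribosomal S6 kinase RSK1, stood at 17.1, 16.8 and 16.7 RPKM in ATRX KO against 2.8, 2.57 and 3.11 in ATRX WT, 5.97-fold higher (log2 difference 2.58, SE 0.069, adjusted p = 1.49e-09). Rps6ka2 (chr17:7170115-7303315), which encodes RSK3, stood at 28, 26.6 and 25.8 against 4.46, 4.61 and 4.53 RPKM, 5.91-fold higher (log2 difference 2.56, SE 0.043, adjusted p = 9.95e-11). Rps6ka3, which encodes RSK2, fell from 19 ± 0.439 to 14.6 ± 0.645 RPKM (log2 difference -0.38, adjusted p = 2.08e-05), or by 0.58 with read-total scaling. In the sum of the 3 genes Rps6ka3 made up 72.1% ± 1.10 in ATRX WT and 25.0% ± 1.34 in ATRX KO, where Rps6ka2 led with 46.0% ± 1.30. That sum was 58.3 ± 0.84 RPKM in ATRX KO against 26.4 ± 0.24 in ATRX WT (SD, n = 3 each).

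**Figure D4:**
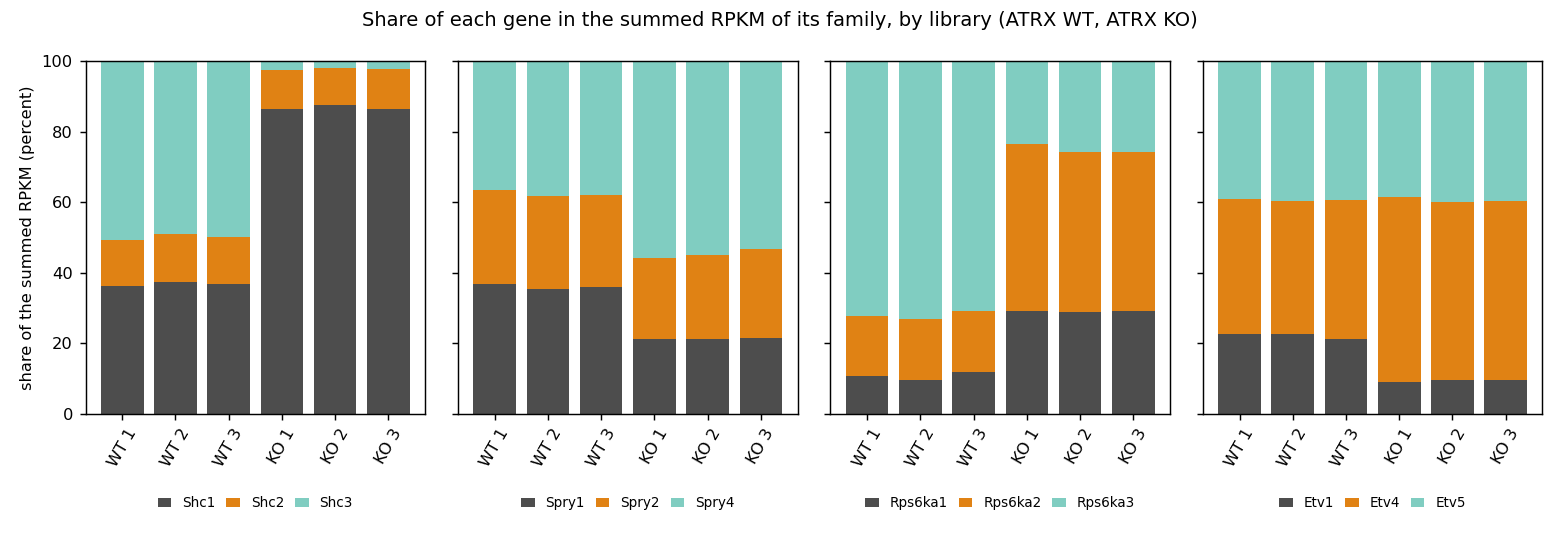
Share of each gene in the summed RPKM of its family (vertical axis, percent), as stacked bars from 0 to 100. Bars are given for each of the 3 ATRX WT and 3 ATRX KO libraries. The families are the SHC genes Shc1 to Shc3 (without Shc4), the Sprouty genes, the RSK genes Rps6ka1 to Rps6ka3, and the ETS genes Etv1, Etv4 and Etv5. In ATRX KO Shc1 takes the place of Shc3, and Rps6ka1 with Rps6ka2 that of Rps6ka3, as the larger share, while Etv1 makes up 9.30% of its family against 22.1% in ATRX WT.

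The ETS-domain factors that ERK phosphorylates went in opposite directions. Elk3, a partner of serum response factor, rose from 19.8 ± 0.121 to 32.4 ± 1.4 RPKM (log2 difference 0.71, SE 0.036, adjusted p = 1.04e-07). Elk1, which acts with the same factor, fell from 16 ± 0.674 to 12.4 ± 0.226 RPKM (log2 difference -0.37, SE 0.041, adjusted p = 2.78e-05), or by 0.56 with read-total scaling. Neither gene had overlapping groups.

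Of the 5 genes that ERK is known to induce, 2 rose, 2 fell and 1 gave no call, beside 43.6% higher and 45.9% lower among all tested genes. Ier3 (chr17:35821684-35822923), an immediate early survival gene, had the highest level of all 51 genes in ATRX KO, at 1019.6, 985 and 969 RPKM against 216, 197 and 205 in ATRX WT, 4.82-fold higher (log2 difference 2.27, SE 0.041, adjusted p = 1.45e-10). Etv1 (chr12:38779380-38870484), an ETS factor of the PEA3 family, stood at 12, 13.1 and 12.7 against 34.1, 34.2 and 33.1 RPKM, 2.68-fold lower (log2 difference -1.43, SE 0.040, adjusted p = 1.94e-09). The groups overlapped for neither.

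Etv1 made up 9.30% ± 0.37 of the summed RPKM of the PEA3 factors in ATRX KO and 22.1% ± 0.82 in ATRX WT (SD, n = 3 each). The other PEA3 factors differed by little. Etv4 was at 71, 69.3 and 68.5 against 57.4, 57.3 and 61.8 RPKM (log2 difference 0.24, adjusted p = 0.000169), and the call was lost after quantile normalization (0.07, adjusted p = 0.0899) and with read-total scaling (0.05, adjusted p = 0.242). Etv5 was at 51.9, 54.5 and 53.1 against 58.9, 60.2 and 61.3 RPKM (log2 difference -0.18, adjusted p = 0.000371), or -0.38 with read-total scaling and -0.34 after quantile normalization. Phlda1, an inducible gene used in scores of MAPK output, was at 50.4, 48 and 47.8 against 47.3, 45.4 and 46.6 RPKM and gave no call although the ranges did not overlap (log2 difference 0.07, 95% interval -0.00 to 0.14, adjusted p = 0.0663). It was called lower after quantile normalization (-0.09) and with read-total scaling (-0.13).

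Other genes of the pathway were read from a list of 77, of which 65 are in the table and 56 were tested. Of these 24 rose, 29 fell and 3 gave no call (94.6% called, against 89.5% of all tested genes), with a median log2 difference of -0.15. The largest rises were in the receptor gene Epha2 (5.11), the AP-1 subunit Fosl1 (4.95), the RAS-like gene Rerg (4.74), Myc (3.62) and the receptor inhibitor Errfi1 (3.60). Epha4, with 2008 ATRX WT reads and 0 ATRX KO reads, was at least 438.6-fold lower, and the other large falls were Rasl11a (-5.07), the FGF receptor Fgfr3 (-3.74), the SHC relative Shc4 (-3.46) and the exchange factor Rasgrp2 (-2.78). Epha4, Fgfr3 and Rasgrp2 passed the filter on low values through ATRX WT alone, as did Rasd1, which also fell. Rerg passed it through ATRX KO alone. The filter therefore fixed the direction of these genes, which are included in the 24 that rose and the 29 that fell. On the scale log2(RPKM + 1) the difference was -1.99 for Fgfr3 and -0.95 for Rasgrp2, and after quantile normalization it was -1.02 for Rasgrp2. Shc4 fell with Shc3, while Fosl1 and Myc, both known ERK-responsive genes, rose with Ier3 and Dusp5. Other ERK-responsive genes fell, among them Dusp4, Dusp6, Etv1, Spry1, Spry2 and Spry4. Of 8 ERBB and FGF receptor genes 4 were tested, and all 4 are named, a choice made after their values were seen. Egfr, the EGF receptor, fell from 6.21 ± 0.322 to 1.36 ± 0.152 RPKM (log2 difference -2.20), Fgfr3 fell as above, Fgfr1 rose (1.47), and Erbb2, a partner of the other ERBB receptors that binds no ligand itself, rose (0.89, with 0.58 on the scale log2(RPKM + 1) and 1.67 after quantile normalization). Of 9 other genes of MAPK output scores 5 rose, 3 fell and 1 gave no call. Among 9 other ERK-activated kinases and substrates 6 rose, 2 fell and 1 gave no call. Over all tested genes 43.6% were higher and 45.9% lower.

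Between 183 and 146335 reads per group lay behind each tested gene. Exons of Dusp5, Spry1 and Phlda1 share 22.1%, 24.4% and 33.0% of their bases with a gene model on the opposite strand that is not in the table, and whether reads were counted by strand is not given in the sources used here. Neighbours within 5 Mb of each of the 51 genes, kept where their mean log2 RPKM reached 3, had median log2 differences from -0.40 (10 genes beside Rasa1) to 0.73 (5 genes beside Etv1). Both of these genes differed from that median in sign, at 1.31 and -1.43. Around Rps6ka1, on distal chromosome 4, the median of 88 neighbours was 0.36 beside 2.58 for the gene itself.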

How the data were processed

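RNA-seq of 6 libraries was analysed. Per the labels' protocols, each library took 4 ug of total RNA into a stranded mRNA kit and was sequenced with paired 42-nt reads. The authors deposited log2 RPKM values for 13069 genes. FastQC, Trim Galore, edgeR 3.20.9, HTSeq 0.11.2 and STAR 2.5.3a are named, per the submitters' processing notes, with the builds mm9 and mm10 and no role for either; how low genes were removed before deposit is not given in the sources used here. The deposited log2 values fall on whole-read steps, from which reads were recovered for 100% of genes within 0.0001 reads. They gave the depths, the voom alternative and the read-total scaling, in which each library is scaled by its reads in the table.

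The test took the 12201 genes whose log2 RPKM reached 0 in 3 libraries or more. It was limma 3.58.1 in R 4.3.3, a linear model with a mean-variance trend; p-values are two-sided and adjusted by Benjamini-Hochberg across those genes. The script was tested on simulated data. The genes, lists and tests were chosen with earlier results of these data known. All 52 listed genes are named, with each library's value for RAS genes, for genes called with an absolute log2 difference of at least 1 and for genes without a call; up to 5 of the largest rises and falls are named among other pathway genes. Some genes of that rule are not reported here. Alternatives were other pseudocounts, filters, scalings, variance priors, voom, a test against a log2 difference of 1, the replicate number as a block and each library left out. Gene positions are from GENCODE M21 (GRCm38), promoters from RefSeq (GRCm38.p6).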

Additional observations from a re-analysis of the deposited data

How the results depend on the processing

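Leaving aside the test against a log2 difference of 1, 39 of 50 tested genes kept their direction and call under every alternative run. The test against 1 called 10 genes higher and 6 lower, and 13 and 12 of the other pathway genes, because it asks for a larger difference. Read-total scaling turned Sos1 to -0.0403, Sos2 to -0.18, Map2k1 to -0.15, Map2k2 to -0.0503, Ksr1 to -0.17 and Phlda1 to -0.13. Quantile normalization turned Sos2 to -0.024, Map2k1 to -0.11, Dusp10 to 0.31 and Phlda1 to -0.0905, and equal medians turned Sos2 to -0.0246 and Ksr1 to -0.0128. Leaving out 1 library gave Dusp10 differences of -0.0675 to 0.0395. For these reversals the cause was not tested. Each library left out in turn gave 22 to 23 of the 50 genes higher and 20 to 21 lower. With the replicate number as a block, 23 genes were higher and 21 lower, with no call changed among the 50. Deviations of same-numbered libraries correlated at -0.05, 0.05 and -0.04 across genes, and not every library correlated best with its own number. No pairing by number was seen, though so few libraries cannot exclude a weak one. The fewest reads in a group behind a tested gene were the 183 of Shc3 in ATRX KO.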
